A study of Mus musculus with 12 samples.

Results

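Transcript levels of 10 genes of the vacuolar proton pump (V-ATPase) were followed in mouse macrophages and osteoclasts, with and without bacterial lipopolysaccharide (LPS). The genes were taken as a fixed list and matched by symbol, each to a single Ensembl identifier, among the 54532 genes of the deposited table. They were 3 genes for subunit a of the membrane sector (Tcirg1, Atp6v0a1 and Atp6v0a2), a pair for subunit d (Atp6v0d1 and Atp6v0d2), 4 genes of the cytosolic sector (Atp6v1a, Atp6v1b2, Atp6v1c1 and Atp6v1g1) and the accessory gene Atp6ap1. All 10 passed the filter for testing, at least 1 FPKM (fragments per kilobase of gene, scaled between libraries) in at least 3 of 12 libraries.

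RNA was sequenced from bone marrow derived macrophages of wild-type mice, which had been expanded in CMG, a culture supernatant that supplies macrophage colony-stimulating factor. Osteoclasts, the cells that resorb bone, were made from such macrophages with the cytokine RANKL, given as 100 ng/mL in the sample source and as 50 to 100 ng/mL in the protocol. CMG was present with and without RANKL. On day 5, cells of each type received LPS at 100 ng/mL for 3 h or none. This gave 4 groups of 3 libraries: untreated macrophages, macrophages with LPS, untreated osteoclasts and osteoclasts with LPS. The labels do not say whether the libraries of a group came from separate animals or cultures, so p-values measure only the spread between these libraries, which may be technical.

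The V-ATPase is a rotary pump. Its cytosolic sector hydrolyses ATP and turns a ring in the membrane sector, which moves protons across the membrane past subunit a. In most cells it acidifies endosomes and lysosomes. In osteoclasts it is also inserted in the ruffled border and acidifies the space between cell and bone, and loss of Tcirg1, which encodes the a3 isoform found at that border, causes osteopetrosis in mice and humans. Atp6v0d2 encodes the d isoform that is enriched in osteoclasts and is also known for a role in the fusion of their precursors.

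The reads assigned to genes, as recovered from the deposited values, numbered 15651763 to 20281452 per library. Replicates of a group differed beyond counting error. The chi-square divided by its degrees of freedom was 2.54 to 11.6, highest between replicates 1 and 2 of osteoclasts with LPS. The 8 osteoclast markers (Ctsk, Acp5, Calcr, Mmp9, Dcstamp, Ocstamp, Oscar and Itgb3) summed to 5.17 to 9.35 FPKM in untreated macrophages and 17.4 to 22.1 with LPS, against 28840 to 30316 in untreated osteoclasts and 28300 to 31297 with LPS. The 8 macrophage markers summed to 2101 to 2176 FPKM in untreated macrophages and 3177 to 3244 with LPS, and to 1730 to 1809 in untreated osteoclasts and 1740 to 1830 with LPS. In untreated osteoclasts Cd68 (1402 FPKM, against 670 in untreated macrophages) and Csf1r (310 against 441) made up most of that sum. The other 6 had lower means there: Adgre1 33.1 against 428, Cd14 16.2 against 109, Mrc1 2.57 against 293, Mertk 1.79 against 19.4, Cx3cr1 0.486 against 142 and Fcgr1 0.429 against 45.1. Of the markers of other cells, the 6 stromal and osteoblast genes summed to 26.1 to 36.0 FPKM in untreated macrophages and 28.0 to 34.1 with LPS, and to no more than 1.39 FPKM in any osteoclast library. The 7 neutrophil markers summed to 4.46 to 6.64 FPKM in untreated macrophages and 5.54 to 12.7 with LPS, and to at most 1.76 FPKM in osteoclasts. The 5 dendritic cell markers summed to 0.259 to 0.280 FPKM in untreated macrophages and 5.62 to 6.29 with LPS, where Xcr1 made up 5.31 FPKM, and to at most 1.84 FPKM in osteoclasts. The 4 markers of V-ATPase-rich epithelial cells reached at most 1.04 FPKM in any library. Mitochondrial genes took 1.504% to 1.618% of reads in untreated macrophages, 1.27% to 1.37% with LPS and 5.16% to 6.18% in osteoclasts. These values moved with cell type. In macrophages the osteoclast, macrophage and dendritic cell marker sums and the mitochondrial share also differed with LPS without overlap. Their part in the differences below was not tested. In bulk samples, fewer cells of a type and less RNA per cell cannot be told apart.

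The isoforms of a subunit are separate genes, and the stretches that their coding sequences share are short. The coding sequences of Atp6v0d1 (1056 bases) and Atp6v0d2 (1053 bases) were identical at 694 of 1056 aligned positions, or 65.7%, and their longest shared run was 17 bases. That run, in capitals, is shown with 25 bases on each side, which is coding bases 135 to 201 of each gene, 5′ to 3′, from GENCODE M21 transcripts:
Atp6v0d1: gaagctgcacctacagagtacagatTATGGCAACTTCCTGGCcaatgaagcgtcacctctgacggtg
Atp6v0d2: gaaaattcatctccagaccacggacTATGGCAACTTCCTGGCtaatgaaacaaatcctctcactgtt
For subunit a, Tcirg1 was identical to Atp6v0a1 at 57.5% and to Atp6v0a2 at 59.2% of aligned coding positions, with longest shared runs of 29 and 20 bases. Atp6v0a1 and Atp6v0a2 matched at 60.3%, with a longest run of 23 bases.

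Promoter stretches are shown for the members whose windows hold TCACGTG or TGANTCA, and for Atp6v0b, another subunit gene, with 2 copies of TCACGTG. The windows ran from 250 bases before to 50 bases after a RefSeq start on GRCm38.p6, the assembly that the labels name as mm10, and 5 of the 10 genes had at least 1 window (Atp6v0d1, Atp6v0a1, Atp6v1a, Atp6ap1 and Tcirg1). TCACGTG, the site that factors of the MITF and TFEB family are known to bind, was searched on both strands. It was present in 3.77% of 32851 promoter windows of all genes. Among the members it was in those of Atp6v0d1 and Atp6v1a, and among the other V-ATPase subunits in those of Atp6v0b, in 2 copies, and Atp6v0e. In Atp6v0d1, Atp6v1a and Atp6v0e a match on the other strand overlaps the first, shifted by 1 base. The stretches below are 5′ to 3′ on the strand of the gene, with the matches in capitals:
Atp6v0d1: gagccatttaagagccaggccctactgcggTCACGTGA
Atp6v1a: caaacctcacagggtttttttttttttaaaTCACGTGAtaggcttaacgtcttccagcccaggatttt
Atp6v0b: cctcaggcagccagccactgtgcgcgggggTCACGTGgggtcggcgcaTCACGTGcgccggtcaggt
The Atp6v0d1 stretch is chr8:105566061-105566098, minus strand, and its match spans the start, from -4 to 4. The Atp6v1a stretch is chr16:44139354-44139421, minus strand, with the match from -132 to -125. The Atp6v0b stretch is chr4:117887330-117887396, minus strand, with matches from -37 to -13.

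Among the 5 members with a window, only Atp6v0a1 had TGANTCA, the AP-1 site. TGANTCA was present in 7.81% of all windows. The Atp6v0a1 stretch is chr11:101010257-101010323, plus strand, and its match, in capitals, lies from -111 to -105:
Atp6v0a1: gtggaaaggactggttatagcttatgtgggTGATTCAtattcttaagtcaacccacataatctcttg
TCATGTG, another letter order bound by the MITF family, was in 3.77% of all windows and in none of the members' windows. The NF-kB site, searched as GGG, any 5 bases and CC, was in 50.8% of all windows and in those of Tcirg1 and Atp6ap1. A match is a description of letters in a window, and binding was not measured.

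The order of the 10 levels differed between the cell types. In untreated macrophages Atp6v1g1 was highest at 122 ± 5.22 FPKM (SD, n = 3), followed by Atp6ap1 at 108 ± 4.02 and Atp6v1a at 83.4 ± 0.517. Atp6v0d1, Tcirg1 and Atp6v1b2 came next, between 60.3 and 72.1 FPKM, with Tcirg1 overlapping the libraries of the other two. Atp6v0a1, Atp6v1c1, Atp6v0a2 and Atp6v0d2 followed in that order without overlap. In untreated osteoclasts Atp6v0d2 was highest at 820 ± 17.1 FPKM and Atp6v0a1 lowest at 5.53 ± 0.406. There the libraries of Atp6v1g1 and Atp6v1b2 overlapped, at 713 to 780 and 708 to 723 FPKM, and so did those of Atp6v1c1 and Atp6v0d1, at 163 to 170 and 152 to 164 FPKM. The 10 genes summed to 595 ± 5.08 FPKM in untreated macrophages, 746 ± 11.2 with LPS, 4067 ± 33.8 in untreated osteoclasts and 4075 ± 141 with LPS. Gene lengths implied by the values matched merged GENCODE M21 exons for 9 members but not for Tcirg1, so the level of Tcirg1 against other genes rests on a length that the sources used here do not give.

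**Figure D1:**
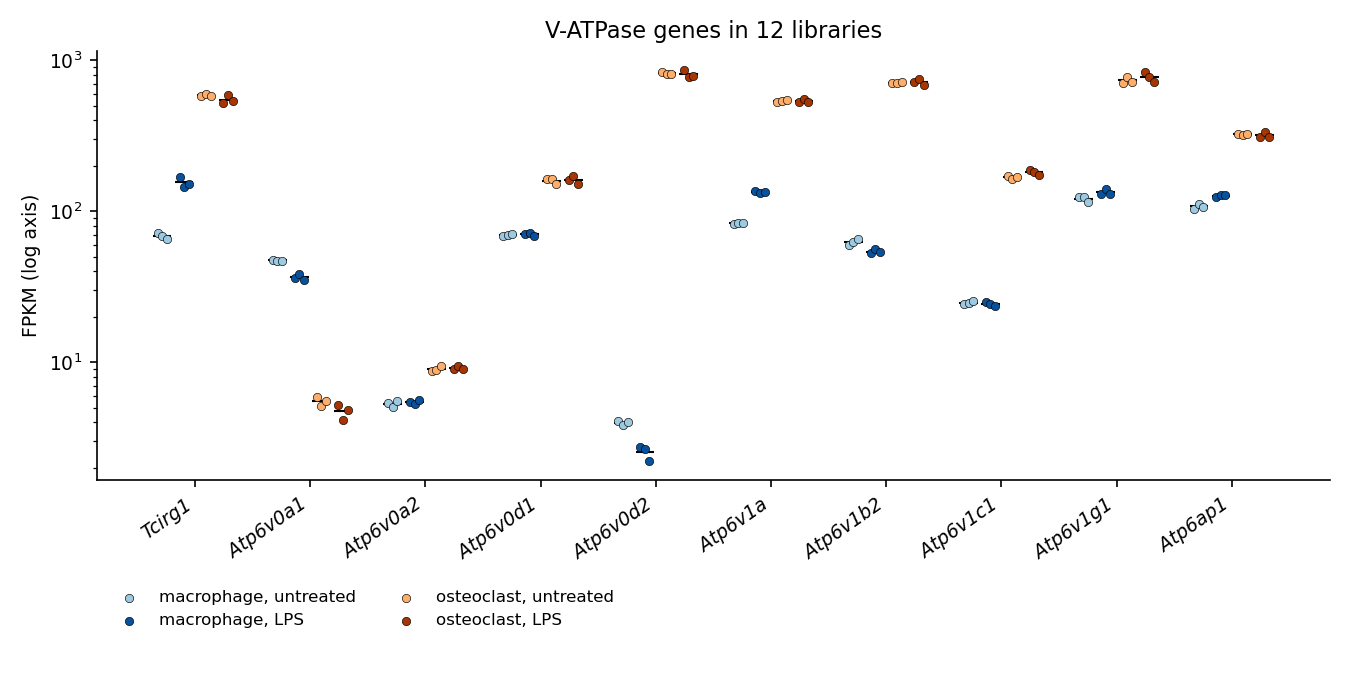
FPKM (log axis) of the 10 V-ATPase genes in each library, with a bar at the mean of each group of 3. Atp6v0d2 runs from 2.23 to 4.10 FPKM in macrophages and from 781 to 860 in osteoclasts, while Atp6v0a1 is the only gene that is lower in osteoclasts.

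Subunit d couples the rotating ring of the membrane sector to the stalk of the cytosolic sector. Atp6v0d2 (ENSMUSG00000028238, chromosome 4, 19876841 to 19922605, GRCm38) was at 4.10, 3.82 and 4.03 FPKM in the 3 libraries of untreated macrophages. Macrophages with LPS had 2.77, 2.66 and 2.23 FPKM, untreated osteoclasts 840, 807 and 814, and osteoclasts with LPS 860, 781 and 789. The osteoclast libraries were far above all macrophage libraries, and those with and without LPS overlapped. The level of Atp6v0d2 was 206-fold higher in untreated osteoclasts than in untreated macrophages, a log2 difference of 7.36 on the log2(FPKM + 1) scale (SE 0.058, adjusted p = 3.44e-16). With LPS it was 317-fold higher (log2 difference 7.84).

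Atp6v0d1 (ENSMUSG00000013160, chromosome 8, 105524465 to 105566047), the d isoform made in most tissues, differed far less. Its levels were 68.3, 69.4 and 70.8 FPKM in untreated macrophages and 71.2, 71.4 and 68.7 with LPS. In osteoclasts they were 164, 164 and 152 FPKM untreated and 162, 171 and 152 with LPS. Every osteoclast library was above every macrophage library, and LPS groups overlapped their controls in each cell type. Atp6v0d1 was 2.30-fold higher in untreated osteoclasts (log2 difference 1.19, SE 0.048, adjusted p = 2.72e-10).

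The d isoforms exchanged rank. Atp6v0d1 was 17.5 ± 0.765 times the level of Atp6v0d2 in untreated macrophages (n = 3), and Atp6v0d2 was 5.14 ± 0.217 times that of Atp6v0d1 in untreated osteoclasts. As a share of the summed deposited FPKM of the pair, in which a factor shared by the genes of a library cancels, Atp6v0d2 made up 5.66%, 5.21% and 5.39% in untreated macrophages and 3.74%, 3.59% and 3.14% with LPS. In osteoclasts it made up 83.7%, 83.1% and 84.3% untreated and 84.2%, 82.0% and 83.9% with LPS. The mean difference between cell types was 79.1 percentage points. The exact permutation test within LPS state (two-sided, 400 arrangements) gave p = 0.005, the smallest it can give, and 0.015 after Benjamini-Hochberg adjustment over 12 tests of shares. With replicate number as a further block, the adjusted exact permutation p was 0.0938, since fewer arrangements cannot pass. With LPS, the macrophage share was lower by 1.93 percentage points without overlap. The exact test of 3 against 3 libraries gave p = 0.1, the smallest it allows (adjusted p = 0.15), so this comparison could not pass the threshold. In osteoclasts the LPS difference of -0.34 percentage points was within the spread of the libraries (exact permutation p = 0.8, adjusted p = 0.8). The summed level of the pair was 73.5 ± 1.27 FPKM in untreated macrophages and 980 ± 20.6 in untreated osteoclasts.

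Subunit a forms the proton path and carries the signal for where the pump is sent in the cell. Tcirg1 (ENSMUSG00000001750, chromosome 19, 3896050 to 3907133) was at 72.1, 68.6 and 65.3 FPKM in untreated macrophages and at 170, 146 and 151 with LPS. Osteoclast levels were 578, 603 and 585 FPKM untreated and 521, 591 and 537 with LPS. The 3 steps, macrophages, macrophages with LPS and osteoclasts, did not overlap, while osteoclasts with and without LPS did. Tcirg1 was 8.57-fold higher in untreated osteoclasts than in untreated macrophages (log2 difference 3.08, SE 0.064, adjusted p = 9.03e-13). With LPS in both cell types it was 3.54-fold higher (log2 difference 1.82).

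Atp6v0a1 (ENSMUSG00000019302, chromosome 11, 101009452 to 101063719) encodes the a1 isoform, best known from neurons. It went the opposite way. It was at 48.0, 46.8 and 47.3 FPKM in untreated macrophages, 36.4, 38.6 and 35.3 with LPS, 5.92, 5.11 and 5.56 in untreated osteoclasts and 5.21, 4.15 and 4.84 with LPS. All osteoclast libraries were below all macrophage libraries. Untreated osteoclasts had 8.56-fold less than untreated macrophages (log2 difference -2.89, SE 0.068, adjusted p = 2.55e-12).

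Atp6v0a2 (ENSMUSG00000038023, chromosome 5, 124628576 to 124724455), whose a2 isoform works mainly in the Golgi, was low in all groups. It ranged from 5.08 to 5.62 FPKM over the 6 macrophage libraries and from 8.71 to 9.52 FPKM over the 6 osteoclast libraries. The osteoclast level was 1.70-fold higher without LPS (log2 difference 0.67, adjusted p = 5.48e-08). Its exons overlap 4930404A12Rik on the opposite strand, and whether strand was used is not given in the sources used here, so its values are uncertain.

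The makeup of subunit a moved toward Tcirg1 with cell type and differed with LPS in macrophages. Tcirg1 made up 57.5%, 57.0% and 55.3% of the FPKM of the 3 genes in untreated macrophages and 80.2%, 76.9% and 78.7% with LPS. In osteoclasts its share was 97.5%, 97.7% and 97.5% untreated and 97.3%, 97.7% and 97.5% with LPS. The share of Atp6v0a1 was 39.0% ± 0.903 (SD, n = 3) in untreated macrophages, 18.6% ± 1.58 with LPS, 0.918% ± 0.0857 in untreated osteoclasts and 0.845% ± 0.146 with LPS. Atp6v0a2 held the rest, 4.39% ± 0.240 in untreated macrophages, 2.77% ± 0.171 with LPS and less than 2% in every osteoclast library. Between cell types the shares differed by 30.0 percentage points for Tcirg1, -28.0 for Atp6v0a1 and -2.01 for Atp6v0a2, each with an exact permutation p = 0.005 (adjusted p = 0.015). With replicate number as a further block, the adjusted exact permutation p was 0.0938 for each. So although the level of Atp6v0a2 was higher in osteoclasts, its share of the 3 genes was lower there.

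In macrophages LPS came with 22.0 percentage points more Tcirg1 and 20.4 fewer of Atp6v0a1, without overlap between the groups. These tests too gave p = 0.1, the smallest that an exact test of 3 against 3 allows. In osteoclasts the LPS differences of the 3 shares lay between -0.07 and 0.14 percentage points, with exact permutation p-values of 0.2 to 0.6. The 3 genes summed to 121 ± 3.76 FPKM in untreated macrophages, 198 ± 12.3 with LPS, 603 ± 12.4 in untreated osteoclasts and 564 ± 36.5 with LPS.

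**Figure D2:**
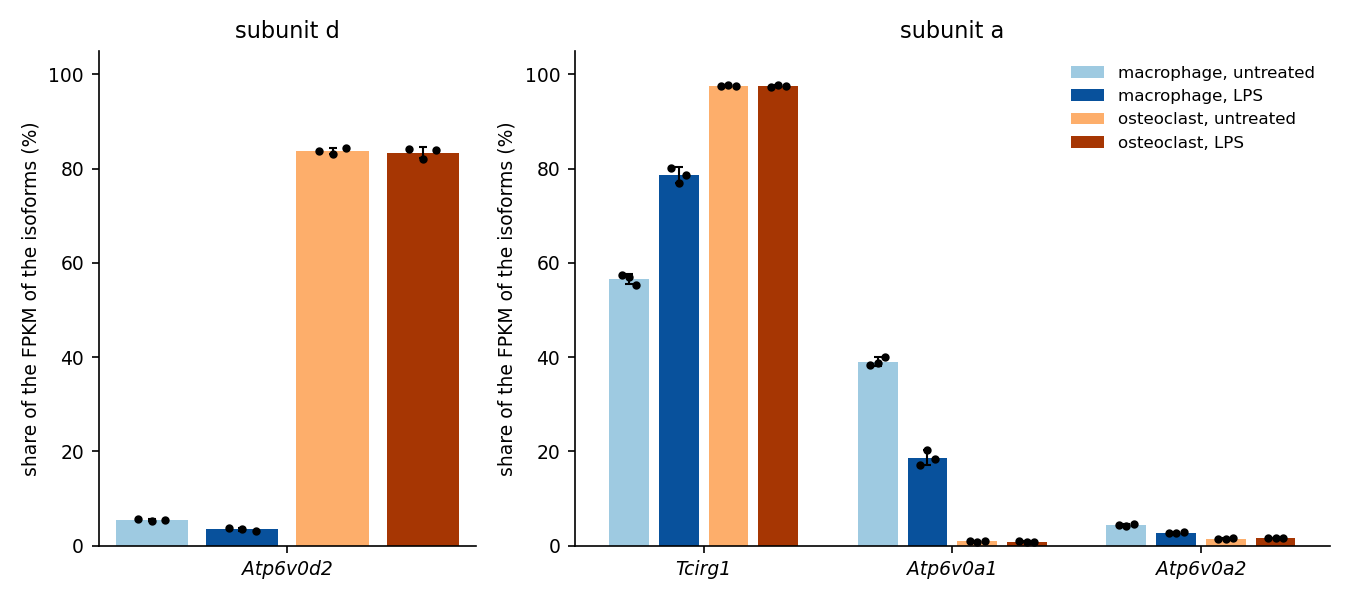
Share of each isoform in the summed FPKM of its subunit (percent), subunit d on the left and subunit a on the right; bars are group means with SD and points are the 3 libraries. Atp6v0d2 rises from 5.42% in untreated macrophages to 83.7% in untreated osteoclasts, and Tcirg1 from 56.6% to 97.6%, with 78.6% in macrophages with LPS.

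The cytosolic sector holds A and B subunits, which form the ring that hydrolyses ATP, and the C and G subunits of the stalks that hold it in place. Atp6v1a (ENSMUSG00000052459, chromosome 16, 44085402 to 44139705), the catalytic A subunit, was at 82.9, 83.4 and 83.9 FPKM in untreated macrophages and 137, 133 and 135 with LPS. Osteoclasts had 527, 542 and 549 FPKM untreated and 532, 558 and 526 with LPS. As for Tcirg1, the LPS macrophages lay between the untreated macrophages and the osteoclasts without overlap. Atp6v1a was 6.47-fold higher in untreated osteoclasts (log2 difference 2.68, adjusted p = 1.73e-14) and 3.99-fold higher when both cell types had LPS.

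Atp6v1b2 (ENSMUSG00000006273, chromosome 8, 69088646 to 69113711), the B isoform made in most tissues, was at 60.3, 62.3 and 65.6 FPKM in untreated macrophages. It was at 52.6, 56.2 and 53.7 FPKM in macrophages with LPS, 708, 708 and 723 in untreated osteoclasts and 717, 755 and 692 in osteoclasts with LPS. The untreated osteoclast level was 11.4-fold higher (log2 difference 3.49, SE 0.044, adjusted p = 1.59e-14), the second highest among the members. Since A and B subunits sit in the pump in equal number, the ratio of their transcripts was followed within libraries. Atp6v1b2 was 0.752 ± 0.027 of Atp6v1a in untreated macrophages, 0.401 ± 0.0209 with LPS, 1.32 ± 0.0186 in untreated osteoclasts and 1.34 ± 0.0213 with LPS (n = 3 each). The ranges of the first 3 groups did not overlap, and those of the osteoclast groups did.

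Atp6v1c1 (ENSMUSG00000022295, chromosome 15, 38661933 to 38692446), the C subunit, ranged from 23.7 to 25.7 FPKM over the 6 macrophage libraries. It was at 170, 163 and 169 FPKM in untreated osteoclasts and 188, 183 and 175 with LPS, where the groups did not overlap. It was 6.73-fold higher in untreated osteoclasts than in untreated macrophages (log2 difference 2.70, adjusted p = 5.06e-14). Atp6v1g1 (ENSMUSG00000039105, chromosome 4, 63544772 to 63550750), the G subunit of the peripheral stalk, was at 125, 125 and 116 FPKM in untreated macrophages and 131, 141 and 131 with LPS. It was at 713, 780 and 722 FPKM in untreated osteoclasts and 839, 775 and 716 with LPS, and 6.07-fold higher in untreated osteoclasts (log2 difference 2.59, adjusted p = 2.76e-12).

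Atp6ap1 (ENSMUSG00000019087, chromosome X, 74297097 to 74304721), an accessory protein needed to assemble the membrane sector, was at 104, 112 and 107 FPKM in untreated macrophages and 125, 128 and 128 with LPS. Osteoclasts had 326, 323 and 325 FPKM untreated and 312, 336 and 312 with LPS. It was 3.01-fold higher in untreated osteoclasts (log2 difference 1.58, adjusted p = 4.45e-12), and its LPS groups overlapped in osteoclasts but not in macrophages.

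Without LPS, 9 of the 10 members were higher and 1, Atp6v0a1, lower in osteoclasts at an adjusted p under 0.05 (limma, Benjamini-Hochberg over 11335 genes). Of all genes tested, 77.8% passed, 38.8% as higher and 39.0% as lower, so a call alone sets a member little apart. The median log2 difference of the members was 2.64, against 0.00 for all genes tested. All 10 had libraries that did not overlap, as had 81.4% of all genes (83.6% with LPS). With LPS in both cell types, 9 members were again higher and Atp6v0a1 lower, where 83.9% of all genes passed, 40.9% as higher and 43.0% as lower. The median of the members was then 1.90, against -0.02 for all genes. These counts were 9 and 1 under each scaling tried.

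Of the 15 other V-ATPase subunit genes, 8 were tested and all 8 were higher in untreated osteoclasts, with a median log2 difference of 2.54. The highest were Atp6v1d, a subunit of the central stalk, at 165 against 17.3 FPKM (9.53-fold, log2 difference 3.18), and Atp6v0c, which forms most of the ring, at 221 against 32.7 FPKM (6.77-fold, 2.72). The lowest were Atp6v1f, also of the central stalk, at 296 against 79.0 FPKM (3.75-fold, 1.89), and Atp6ap2, the prorenin receptor, at 409 against 83.0 FPKM (4.93-fold, 2.29). Atp6v0b, Atp6v0e, Atp6v1e1 and Atp6v1h lay between, at 2.51 to 2.57. The exons of Atp6v0b, Atp6v1e1 and Atp6v1h overlap a gene on the opposite strand, so their values are uncertain in the same way as those of Atp6v0a2. The same holds for Wdr7, Rogdi, Ostm1, Slc4a2, Plekhm1 and Rab7, described further on, and Ncoa7 and Ccdc115 overlap a gene on their own strand. All 8 other subunit genes tested were higher in osteoclasts with LPS in both cell types too, from Atp6v1e1 and Atp6v1f (1.82 each) to Atp6v0c (2.44) and Atp6v1d (3.19). The other 7 genes (Atp6v0a4, Atp6v0e2, Atp6v1b1, Atp6v1c2, Atp6v1e2, Atp6v1g2 and Atp6v1g3), most of them isoforms known from kidney, testis or brain, stayed under the filter, with at most 0.945 FPKM in any library.

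**Figure D3:**
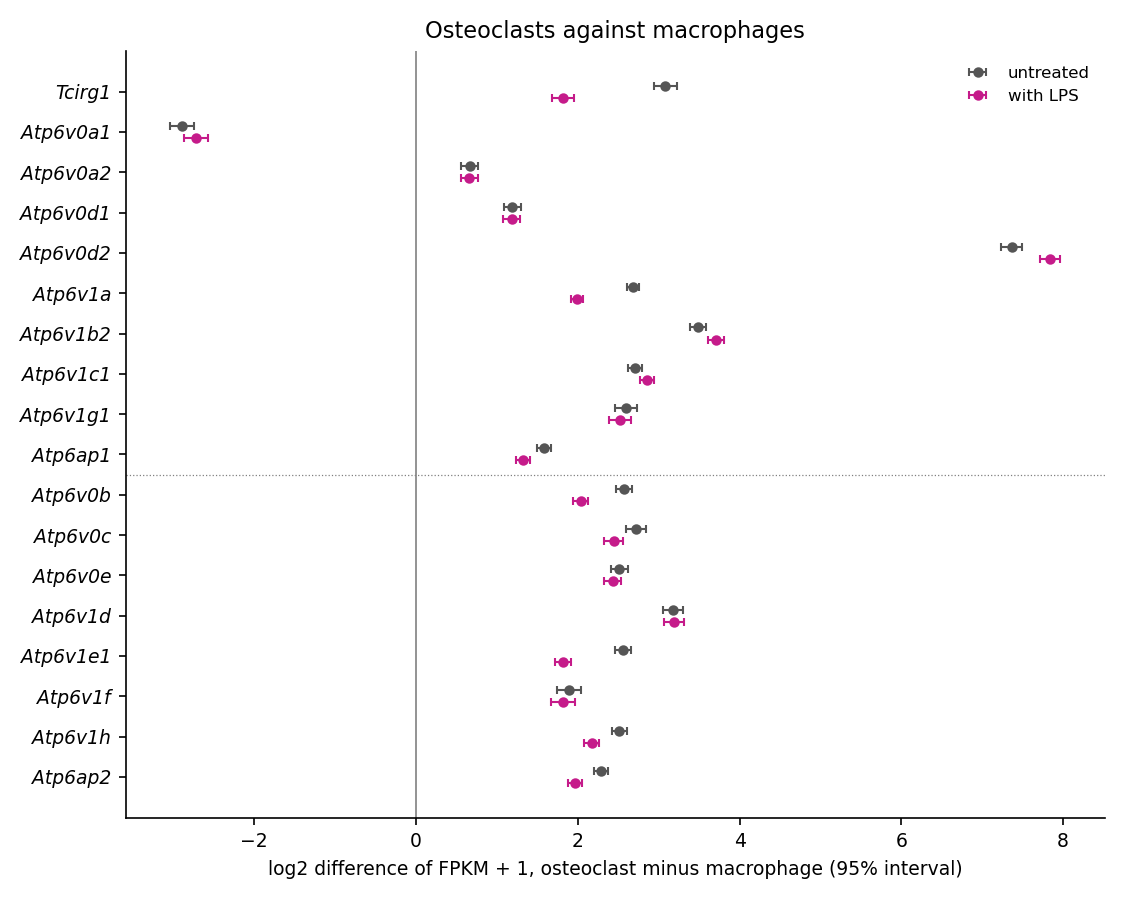
Log2 difference of FPKM + 1, osteoclast minus macrophage, with 95% intervals, for the 10 members (above the dotted line) and 8 other subunit genes tested, without and with LPS. Atp6v0a1 at -2.89 is the only gene to the left of 0, Atp6v0d2 at 7.36 lies far to the right, and most others lie between 1.58 and 3.49 without LPS.

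In macrophages, on the deposited scale, Tcirg1, Atp6v1a and Atp6ap1 were higher with LPS and Atp6v0d2, Atp6v0a1 and Atp6v1b2 lower, 3 in each direction, and 4 did not pass. Of all genes tested 69.9% passed, 36.8% as higher and 33.1% as lower. Libraries did not overlap for 7 of the 10 members and for 74.0% of all genes. The median log2 difference of the members was 0.03, against 0.02 for all genes. The deposited values sum to 255852 to 261584 in untreated macrophages and to 399796 to 408994 with LPS, so directions here depend on the scale. Rescaled to TPM (a fixed sum per library), the median of all genes moved to -0.55, 1 member (Tcirg1) was higher and 8 were lower, where 15.9% of all genes were higher and 70.0% lower. Quantile normalization moved the median to -0.14 and also gave 1 member higher (Tcirg1) and 8 lower, where 26.9% of all genes were higher and 45.8% lower. TPM shifts all genes of a library alike, so a sign that turns on that scale says nothing of the gene relative to the others; values relative to the median are therefore given too.

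Tcirg1 was 2.26-fold higher with LPS (log2 difference 1.17, SE 0.064, adjusted p = 7.25e-09), and it was the only member called higher under all 3 scalings, at 0.53 on the TPM scale and 0.36 after quantile normalization. Relative to the median of all genes it was at 1.08 and 0.49 on these scales. Atp6v1a was 1.62-fold higher as deposited (0.69, SE 0.034, adjusted p = 2.84e-09), was not called on the TPM scale at 0.05, and was lower after quantile normalization at -0.09. Relative to the median it stayed at 0.60 on the TPM scale and was at 0.04 after quantile normalization. Atp6ap1 was 1.18-fold higher as deposited (0.24, adjusted p = 0.000206) but lower on the TPM scale at -0.41 and after quantile normalization at -0.61, which is 0.15 and -0.47 relative to the median.

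The 3 members that were lower as deposited are given with their values relative to the median of all genes on the TPM scale and after quantile normalization. Atp6v0d2 fell by 0.49 on the log2 scale (1.56-fold lower, SE 0.058, adjusted p = 9.88e-06) and lay at -0.62 and -0.30 relative to those medians. Its libraries held 244 to 258 reads without and 85 to 108 reads with LPS. Atp6v0a1 fell by 0.36 (1.29-fold lower, adjusted p = 0.000515), with relative values of -0.45 and -0.82. Atp6v1b2 fell by 0.21 (1.16-fold lower, adjusted p = 0.00113), with relative values of -0.30 and -0.77. Atp6v0d1, Atp6v0a2 and Atp6v1c1 had log2 differences of 0.02, 0.03 and -0.03 as deposited, with 95% intervals within -0.12 to 0.14. Of these, Atp6v0d1 and Atp6v1c1 were called lower on both other scales, and Atp6v0a2 only on the TPM scale, at -0.58. Relative to the TPM median these 3 lay at -0.07 (Atp6v0d1), -0.12 (Atp6v1c1) and -0.02 (Atp6v0a2), and relative to that of quantile normalization at -0.59, -0.36 and 0.13. Atp6v1g1, at 0.14 (95% interval 0.01 to 0.28, adjusted p = 0.0568), missed the threshold as deposited and was called lower on both other scales, at 0.05 relative to the TPM median and -0.60 relative to that of quantile normalization. It passed as deposited when only the macrophage groups were fitted (adjusted p = 0.0291, 7 members called), and when replicate 1 (adjusted p = 0.0282) or 3 (adjusted p = 0.0326) of osteoclasts with LPS was left out of the shared fit.

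In a ratio of deposited values within a library, a factor shared by its genes, such as that of TPM, cancels, while quantile normalization can change the ratio. With LPS, the ratio of Tcirg1 to Atp6v0a1 in macrophages was 4.24 ± 0.442 against 1.45 ± 0.0618, and the ratio of Tcirg1 to Atp6v1a was 1.15 ± 0.0755 against 0.824 ± 0.0458 (SD, n = 3), without overlap in either case.

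Of the other 8 subunit genes tested, 7 were higher with LPS in macrophages as deposited and 0 lower. As deposited 36.8% of all genes were higher. On the TPM scale 1 was higher and 6 were lower (70.0% of all genes were lower), and after quantile normalization 1 was higher and 6 were lower (45.8% of all genes were lower). Atp6v1e1, the E subunit of the peripheral stalk, was the gene higher under all 3 scalings, at 65.5 against 35.5 FPKM (1.85-fold, log2 difference 0.87 as deposited). Next came Atp6v0b, a ring subunit, at 138 against 87.0 FPKM (0.66 as deposited, -0.15 after quantile normalization). The lowest were Atp6v1d at 0.10, which was not called as deposited (adjusted p = 0.114), and Atp6v1f at 0.22.

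**Figure D4:**
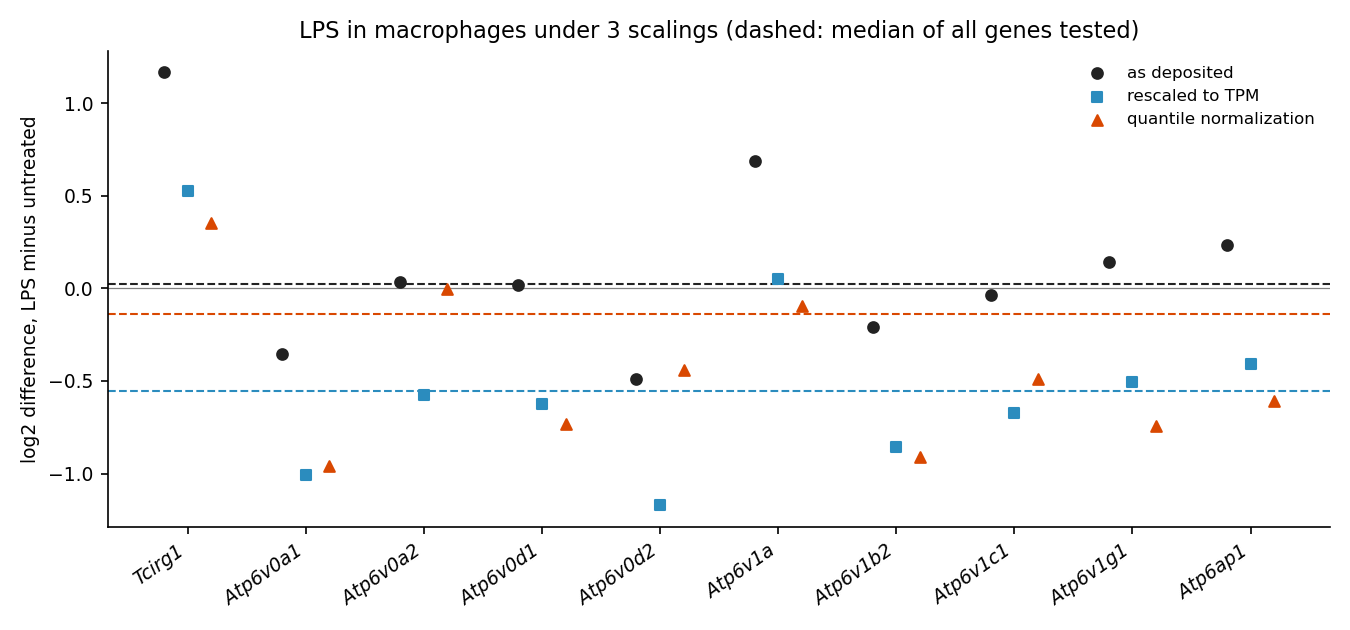
Log2 difference of each member between macrophages with LPS and untreated macrophages under 3 scalings, with dashed lines at the median of all genes tested (0.02 as deposited, -0.55 for TPM, -0.14 for quantile normalization). Tcirg1 is the only member called above 0 under all 3, and Atp6v0d2, Atp6v0a1 and Atp6v1b2 lie below 0 in each.

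In osteoclasts none of the 10 members passed the test between LPS and untreated cells, where limma called 17.7% of all genes, 11.1% as higher and 6.59% as lower. Unadjusted limma p-values were under 0.05 for 2 members, Atp6v0a1 (log2 difference -0.19, 95% interval -0.34 to -0.04, adjusted p = 0.0768) and Atp6v1c1 (0.12, 0.03 to 0.20, adjusted p = 0.0628). Atp6v0a1 passed without replicate 1 with LPS (adjusted p = 0.0311) and Atp6v1c1 without replicate 3 with LPS (adjusted p = 0.0336). Limma's voom on the recovered reads called 1, Atp6v1c1 (adjusted p = 0.0326). The 95% intervals bound the log2 change of Atp6v0d2 to between -0.15 and 0.11, that of Tcirg1 to between -0.24 and 0.04 and that of Atp6v1a to between -0.08 and 0.07. For the other 5 members they lay within -0.11 and 0.21. Only Atp6v1c1 had libraries that did not overlap, against 34.0% of all genes. In simulated data with the same groups, 12.2% of genes changed 1.2-fold in osteoclasts and 70.8% of those changed 1.5-fold were called. There few genes were changed, over all levels of expression and with a fixed dispersion, so these shares are not those of the members. Among the other subunits 1 of 8 was called, Atp6v0e, at 239 against 215 FPKM (log2 difference 0.15, adjusted p = 0.0479), a call lost on the TPM scale and after quantile normalization. Atp6v1f (0.14) came next, and Atp6ap2 (-0.05) and Atp6v0c (0.02) were lowest. The median of those 8 was 0.12, against 0.01 for all genes. After quantile normalization 1 of those 8 was called lower. Quantile normalization called 3 members lower, Tcirg1 (-0.21), Atp6v0a1 (-0.23) and Atp6v1a (-0.10), and the TPM scale 1, Atp6v0a1 (-0.28). Of all genes 13.4% and 10.8% were lower on these scales.

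**Figure D5:**
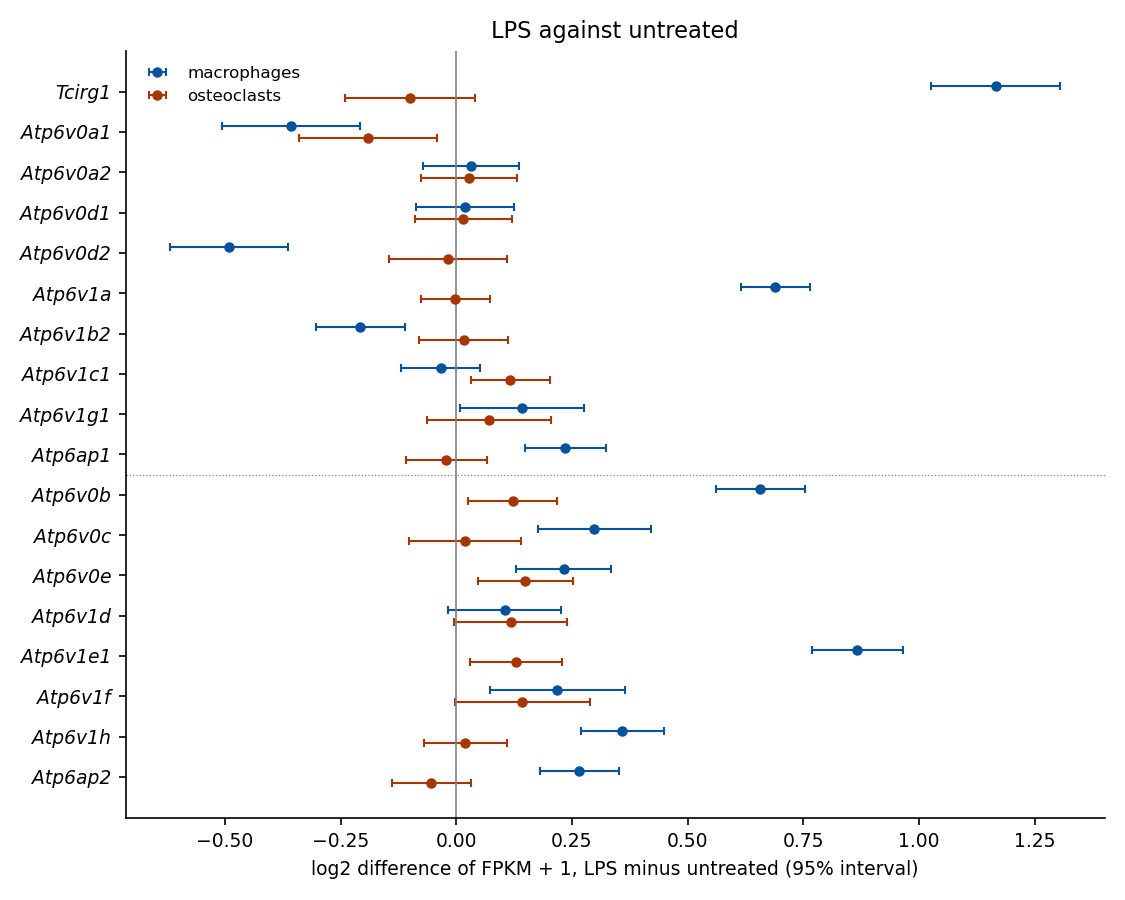
Log2 difference of FPKM + 1, LPS minus untreated, with 95% intervals, in macrophages and in osteoclasts, for the 10 members (above the dotted line) and 8 other subunit genes, on the deposited scale. In macrophages the values run from -0.49 (Atp6v0d2) to 1.17 (Tcirg1), where directions other than those of Tcirg1, Atp6v1e1, Atp6v0d2, Atp6v0a1 and Atp6v1b2 differ between scalings or were not called; in osteoclasts all lie between -0.19 and 0.15.

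The difference between the LPS effects, osteoclasts minus macrophages, was tested as an interaction. On the deposited scale 6 members passed, 3 above and 3 below 0, where 56.6% of all genes passed, 26.6% above and 30.0% below. The lowest was Tcirg1 at -1.27 (SE 0.090, adjusted p = 2.02e-07), which lay at -1.21 relative to the median of all genes on the TPM scale and -0.65 after quantile normalization. Atp6v1a at -0.69 (adjusted p = 1.70e-07) was not called under either, though on the TPM scale it lay at -0.63 relative to the median of all genes (-0.09 after quantile normalization). Atp6ap1 at -0.26 turned to 0.32 and 0.48, which is -0.20 and 0.40 relative to the median. Above 0 were Atp6v0d2 at 0.47 (adjusted p = 0.000388), Atp6v1b2 at 0.22 (adjusted p = 0.00889) and Atp6v1c1 at 0.15 (adjusted p = 0.0361). Relative to the median of all genes they lay at 0.57, 0.29 and 0.21 on the TPM scale and at 0.26, 0.73 and 0.41 after quantile normalization. The call of Atp6v1c1 was lost in 8 of the 12 fits that left out a library (adjusted p 0.0540 to 0.0886). It held only without replicate 1 of untreated macrophages, of macrophages with LPS or of untreated osteoclasts, or without replicate 3 of osteoclasts with LPS. Atp6v0a1 (0.17) was called without replicate 2 of osteoclasts with LPS (0.24, adjusted p = 0.0220). The members called above 0 numbered 8 on the TPM scale and 7 after quantile normalization, where the median of all genes was 0.51 and 0.09 and where 63.3% and 36.1% of all genes were above 0.

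Of 10 tested genes that help to assemble the pump or to bring its sectors together, 5 were higher and 4 lower in untreated osteoclasts, under each of the 3 scalings. Of all genes 38.8% were higher and 39.0% lower as deposited, 24.3% and 57.0% on the TPM scale, and 40.4% and 38.1% after quantile normalization. The highest were Wdr7 and Oxr1 (log2 differences 1.81 and 1.22), followed by Dmxl1 (1.11), Tmem199 (0.96) and Vma21 (0.70). Wdr7 and Dmxl1 belong to the rabconnectin complexes that reattach the cytosolic sector, Oxr1 has the TLDc domain known to bind the pump, and Vma21 and Tmem199 are assembly factors of the membrane sector. Lower were Rogdi (-1.01), Dmxl2 (-0.87), Ncoa7 (-0.61) and Ccdc115 (-0.41). Tldc2 (0.08) was not called, with 8 reads or fewer per library in untreated cells.

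With LPS in macrophages, 3 of these genes were higher and 5 lower as deposited, 2 and 7 on the TPM scale, and 3 and 5 after quantile normalization. The share of all genes called lower was 33.1%, 70.0% and 45.8% under these scalings, and that called higher 36.8%, 15.9% and 26.9%. Ncoa7, another TLDc protein, was at 11.8 against 2.56 FPKM (4.61-fold, log2 difference 1.85) and Tldc2 at 2.73 against 0.157 FPKM (1.67), where untreated libraries held 1 to 4 reads. Tldc2 reached 1 FPKM only in macrophages with LPS, so it was tested only because it was high there. Vma21 was at 0.56. The assembly factors Ccdc115 and Tmem199 were at 7.96 against 23.0 and 3.11 against 9.70 FPKM (-1.42 and -1.38), and Dmxl2, Wdr7 and Oxr1 were at -0.40, -0.39 and -0.29. The directions of Ncoa7, Tldc2, Ccdc115, Tmem199, Dmxl2, Wdr7 and Oxr1 were the same under the 3 scalings, while Vma21 was at -0.05 on the TPM scale. In osteoclasts LPS gave 1 call in each direction, Ncoa7 (0.34) and Wdr7 (-0.20), and 1 higher with 3 lower on the TPM scale or 4 lower after quantile normalization. There 11.1% of all genes were higher and 6.6% lower as deposited, 8.3% and 10.8% on the TPM scale, and 8.4% and 13.4% after quantile normalization. Dmxl2 (-0.20) and Vma21 (0.06) were not called as deposited. With LPS in both cell types, 6 were higher and 4 lower in osteoclasts, where 40.9% of all genes were higher and 43.0% lower. Tmem199 (2.30) and Wdr7 (2.00) were highest, and Dmxl2 (-0.67), Rogdi (-0.96), Tldc2 (-1.67) and Ncoa7 (-2.12) were lower.

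The partners of acid secretion supply protons and counter-ions and carry pump-bearing vesicles. In untreated osteoclasts 7 of 8 were higher and 1 lower under each scaling, where 38.8%, 24.3% and 40.4% of all genes were higher as deposited, on the TPM scale and after quantile normalization. Car2, the carbonic anhydrase that makes the protons, was at 114 to 119 FPKM, against at most 0.0713 FPKM and 4 reads in untreated macrophages (log2 difference 6.84). Snx10, a sorting nexin needed for the ruffled border, was at 137 against 7.63 FPKM (17.9-fold, 3.99). Rab7, a GTPase of late endosomes, was at 259 against 163 FPKM (1.59-fold, 0.67), and Rab3d, the gene that was lower, at 5.70 against 14.1 FPKM (-1.17).

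With LPS in macrophages, 5 partners were higher and 3 lower as deposited, where 36.8% of all genes were higher and 33.1% lower. On the TPM scale 3 were higher and 4 lower (15.9% and 70.0% of all genes), and after quantile normalization 4 and 4 (26.9% and 45.8%). Snx10 was at 55.3 against 7.63 FPKM (7.25-fold, log2 difference 2.71) and Clcn7, the lysosomal chloride-proton exchanger, at 49.4 against 19.3 FPKM (2.56-fold, 1.31). Car2 (0.69), Slc4a2 (0.67), which exchanges chloride for bicarbonate, and Rab7 (0.28) were also higher as deposited, but Slc4a2 was not called on the TPM scale and Rab7 was lower on both other scales. With LPS, Car2 was at most 0.775 FPKM in macrophages, on 17 to 28 reads. That is under the filter level, which it reached in osteoclasts only. Plekhm1, an adaptor for lysosome traffic, was at 4.31 against 21.5 FPKM (4.99-fold lower, -2.08), Rab3d at -0.53 and Ostm1, the partner protein of Clcn7, at -0.51, and these 3 were lower under all 3 scalings. In osteoclasts with LPS, Car2 was higher (167 against 117 FPKM, 0.50) and Plekhm1 (-0.22) and Rab3d (-0.18) were lower, under each scaling. As deposited 11.1% of all genes were higher and 6.59% lower there. Rab7 (0.02) was not called. With LPS in both cell types, 7 were higher in osteoclasts and Rab3d lower (-0.82), where 40.9% of all genes were higher and 43.0% lower. Car2 (6.65) and Plekhm1 (3.42) were highest and Rab7 (0.40) next to lowest.

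The 5 transcription factors tested are linked to V-ATPase genes, 4 of the MITF and TFE family and Nfatc1, the master regulator of osteoclasts. In untreated osteoclasts Nfatc1 was at 114 against 7.04 FPKM (16.1-fold, log2 difference 3.83) and Tfec at 9.07 against 1.32 FPKM (2.12), while Tfe3 (-1.32), Tfeb (-1.07) and Mitf (-0.31) were lower, under each scaling. In macrophages with LPS, Tfec rose from 1.32 to 20.3 FPKM (15.4-fold, 3.20) and Mitf from 12.7 to 64.6 FPKM (5.07-fold, 2.26). Tfeb fell from 8.81 to 0.755 FPKM (11.7-fold, -2.49) and Nfatc1 from 7.04 to 4.66 FPKM (-0.51). These 4 directions held under the 3 scalings, and Tfe3 (-0.10, adjusted p = 0.0531) was not called as deposited and was lower on both other scales. In osteoclasts with LPS 3 were higher as deposited, Tfec (0.60), Mitf (0.33) and Nfatc1 (0.23), and the call of Nfatc1 was lost on both other scales. Of all genes 11.1% were higher and 6.59% lower as deposited. Tfeb (-0.27) and Tfe3 (-0.10) were not called as deposited, and Tfe3 was lower on both other scales. With LPS in both cell types, Nfatc1 (4.57) and Tfeb (1.15) were higher in osteoclasts and Mitf (-2.23), Tfe3 (-1.33) and Tfec (-0.48) lower. Here 40.9% of all genes were higher and 43.0% lower as deposited, and in untreated osteoclasts 38.8% and 39.0%. For LPS in macrophages these shares were 36.8% and 33.1%.

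As a description with no test, Pearson r of log2(FPKM + 1) was taken over the 12 libraries, which fall into 4 groups. The genes outside the members whose pattern was most like that of a member were then listed. For Atp6v0d2 they were Slc9b2, a sodium-proton exchanger (r = 0.99978), Itgb3, the integrin subunit of the osteoclast vitronectin receptor (0.99931), Ankrd13b (0.99922), Dnaja3 (0.9992) and Ifi30, a lysosomal thiol reductase (0.99915). For Tcirg1 they were Clcn7 (0.99946), Tmem127 (0.99787), Hk1, a hexokinase (0.99779), Cyp4v3 (0.99776) and Plekhn1 (0.99727). Clcn7 had means of 19.3, 49.4, 248 and 239 FPKM in untreated macrophages, macrophages with LPS, untreated osteoclasts and osteoclasts with LPS. Among the members, which these lists leave out, Atp6v1b2 was most like Atp6v0d2 (0.99956), between Slc9b2 and Itgb3. Atp6v1a was the member most like Tcirg1 (0.99171), below the genes listed for it. Atp6v0a1 ran opposite to Tcirg1 (-0.9687) and to Atp6v0d2 (-0.9877).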

How the data were processed

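The 10 genes and all lists were chosen with earlier results of these data known. FPKM values were deposited by the authors for 12 libraries. fastp, STAR, featureCounts, DESeq2 and the build mm10 are named in the submitters' processing notes, with no version or role. Annotation and strand are not given in the sources used here. In the deposited FPKM, 99.8% of the 25854 genes above 0 were whole multiples of a step (tolerance 0.02 reads), so reads were recovered. Scaling between libraries by median-ratio size factors was inferred from the values and was not tested. On that reading, values are relative to the typical gene. The recovered reads numbered 15651763 to 20281452 per library. Reads without molecular identifiers are not independent molecules, and no count interval was made.

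Tests used limma 3.58.1 in R 4.3.3 (variance trend, 4 group means, 5 contrasts, two-sided) on log2(FPKM + 1), which understates changes of low genes, for the 11335 genes that reached 1 FPKM in 3 or more libraries. P-values were adjusted by Benjamini-Hochberg and called under 0.05. Shares of isoforms were compared by exact permutation tests over all arrangements (Python 3.11.15, numpy 2.4.6). Alternatives were TPM, 0.1 as the pseudocount, all genes unfiltered, genes averaging 5 FPKM or more, quantile normalization, voom on recovered reads, the replicate block, only the groups compared and each library left out. Named genes are all members, the highest and lowest 2 of each list and contrast, and genes behind counts of 5 or fewer. To these come the 5 genes outside the members most like each of Atp6v0d2 and Tcirg1. Slc4a2, Atp6v0b, Atp6v0e, Atp6v1e1, Atp6v1h and Clcn7 were also named beside them. A further marker list is not reported here. The regulator Meak7 matched no symbol and was not analysed here. Of the T and NK cell markers Cd3d, Cd8a and Nkg7, of the erythroid markers Hbb-bs and of the epithelial markers Krt8 were at 0 in all 12 libraries. T and NK cell and erythroid markers summed to at most 0.719 and 0.171 FPKM in any library. On simulated data, 12.8%, 82.0% and 98.0% of genes changed 1.2-, 1.5- and 2-fold in macrophages with LPS were called among 10656, with 2.68% of calls false. The simulation changed few genes, over all levels and with a fixed dispersion, so these shares are not the chance of calling a member.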

Additional observations from a re-analysis of the deposited data

Results flagged for a closer look

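These genes had LPS effects that differed between the cell types by a test of the difference itself (interaction, log2 effect in osteoclasts minus that in macrophages, limma, adjusted p under 0.05 over all genes tested) on the deposited scale. Of all genes tested 56.6% passed, so a pass is common, and signs of smaller values depend on the scaling. As deposited 26.6% of all genes were above and 30.0% below 0, on the TPM scale 63.3% and 13.9%, and after quantile normalization 36.1% and 24.1%, and the counts of each list under these scalings stand against those shares. Among the members they were Tcirg1 (-1.27), Atp6v1a (-0.69) and Atp6ap1 (-0.26) below 0, and Atp6v0d2 (0.47), Atp6v1b2 (0.22) and Atp6v1c1 (0.15) above 0. Of the other subunits 5 were below 0 as deposited, Atp6v1e1 (-0.74), Atp6v0b (-0.54), Atp6v1h (-0.34), Atp6ap2 (-0.32) and Atp6v0c (-0.28). On the TPM scale 6 of the 8 other subunits were above and 1 below 0, and after quantile normalization 5 above and 2 below.

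Of the assembly genes, Tmem199 (1.35), Ccdc115 (1.32) and Oxr1 (0.25) were above 0 and Tldc2 (-1.75), Ncoa7 (-1.51) and Vma21 (-0.51) below, a split of 3 and 3 that became 7 above and 2 below on the TPM scale and 4 and 3 after quantile normalization. Tldc2 passed the filter only through macrophages with LPS. Of the acid secretion partners, Plekhm1 (1.86), Ostm1 (0.40) and Rab3d (0.35) were above 0 and Snx10 (-2.69), Clcn7 (-1.36), Slc4a2 (-0.66) and Rab7 (-0.26) below, 3 and 4 as deposited, 4 and 3 on the TPM scale and 4 and 4 after quantile normalization. Of the transcription factors, Tfeb (2.22) and Nfatc1 (0.74) were above 0 and Tfec (-2.59) and Mitf (-1.92) below, 2 and 2 as deposited and 3 and 2 on each other scale.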

How the results depend on the processing

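In untreated cells and with LPS, osteoclasts against macrophages kept 9 members higher and 1 lower under all settings run. Counts for LPS in macrophages moved from 3 higher and 3 lower to 1 and 8 on the TPM scale and 1 and 8 after quantile normalization. TPM moves all genes of a library alike, so turns of sign on that scale come from the rescaling itself. Single values that turned were, on the TPM scale, Atp6v0d1 (-0.63), Atp6v0a2 (-0.58), Atp6v1g1 (-0.50) and Atp6ap1 (-0.41), and after quantile normalization Atp6v0d1 (-0.73), Atp6v0a2 (-0.0017), Atp6v1a (-0.0943), Atp6v1g1 (-0.74) and Atp6ap1 (-0.61). In osteoclasts with LPS the 0 calls became 1 (lower) on the TPM scale, 3 (lower) after quantile normalization and 1 (higher) by voom, and 0 to 1 over fits without a library (Atp6v0a1 lower without replicate 1 with LPS, Atp6v1c1 higher without replicate 3 with LPS). None of the values that turned there was called: on the TPM scale Atp6v0d1 (-0.0553), Atp6v0a2 (-0.0391), Atp6v1b2 (-0.055) and Atp6v1g1 (-0.0001), and after quantile normalization Atp6v0d1 (-0.0831), Atp6v0a2 (-0.0355), Atp6v1b2 (-0.0939) and Atp6v1g1 (-0.007). Over fits without a library there, values ranged from -0.0278 to 0.0608 for Atp6v0d1, -0.0627 to 0.0065 for Atp6v0d2, -0.0176 to 0.0456 for Atp6v1b2 and -0.0274 to 0.0148 for Atp6v1a.

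Interaction counts of 3 above and 3 below 0 became 8 and 1 on the TPM scale and 7 and 1 after quantile normalization. Values that turned were Atp6v0d1 (0.57 on the TPM scale, 0.65 after quantile normalization), Atp6v1g1 (0.50, 0.73) and Atp6ap1 (0.32, 0.48), and Atp6v0a2 on the TPM scale (0.54). Without single libraries, Atp6v0d1 ranged from -0.0466 to 0.042 and Atp6v0a2 from -0.0277 to 0.03. TPM and quantile normalization fix other totals by construction; which scale is nearer to RNA per cell was not tested. Shares turned only in osteoclasts with LPS, where they ranged over fits without a library from -0.75 to 0.33 percentage points for Atp6v0d2, -0.18 to 0.0262 for Tcirg1 and -0.14 to 0.0074 for Atp6v0a1.

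Replicate numbers are shared between groups. Deviations of same-numbered libraries correlated at -0.07 to 0.10 over 18 pairs, 1 above 0.1, and 7 of 12 libraries correlated best with their own number. Between untreated and LPS libraries of a cell type, the values were 0.104, 0.0967 and -0.0529 in macrophages and 0.0718, 0.0828 and 0.0289 in osteoclasts. The labels do not say whether these libraries were paired. With the replicate block the cell type shares differed by 79.1 (Atp6v0d2), 30.0 (Tcirg1), -28.0 (Atp6v0a1) and -2.01 (Atp6v0a2) percentage points, each with an adjusted exact permutation p = 0.0938, since fewer arrangements cannot pass. Calls over all genes for LPS in macrophages split into 4168 higher and 3753 lower as deposited, 1797 and 7933 on the TPM scale, and 3051 and 5193 after quantile normalization. The block called 7 members for LPS in macrophages, against 6, with Atp6v1g1 added (adjusted p = 0.0328).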
